A study of Mus musculus with 6 samples.

Results

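The data concern 9 genes for ubiquitin ligases and ubiquitin-conjugating enzymes of maturing red cells, Trim10, Trim58, Trim59, Ube2o, Ube2h, Ube2l6, Ube2r2, Fbxo7 and Fbxo30, in mouse erythroblasts. They were taken by symbol, all 9 were listed in every culture, and they stand among 17060 genes listed in any culture. They were picked with the difference between treated and control cultures known, so their differences are given as a description, without a test. Lineage-negative bone marrow cells of wild-type mice, from which cells with markers of mature lineages had been removed, were grown with erythropoietin (EPO), which drives them to become erythroblasts. For 48 hours 3 cultures received NUP-17d, a compound made to inhibit pleckstrin-2 (Plek2), and 3 received the vehicle DMSO. The methods name C57BL/6 for the wild-type mice of the compound screen. Age and sex of the mice, and whether cultures of 1 group came from separate animals, are not given in the sources used here, so the spread between cultures may be technical. Poly(A) RNA was sequenced from the mixed culture as a whole. The labelled cell type, erythroblast, was checked against 16 erythroid markers, all of which were listed in every culture and summed to 222863 to 257077 CPM (counts scaled by library size after the TMM correction for composition) in the DMSO cultures. Most of this sum came from the hemoglobin genes among the markers.

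Ubiquitin is a small protein that marks others for degradation or for a change in function. An activating enzyme (E1) passes it to a conjugating enzyme (E2, the Ube2 genes), and a ligase (E3) selects the protein that receives it. Ligases of the Trim family carry a RING domain that binds the loaded E2, whereas an Fbxo gene encodes an F-box protein, the part of an SCF cullin ligase that recognizes the target. A maturing erythroblast removes most of its proteins and its organelles while hemoglobin is kept, and several ubiquitin enzymes are made in large amounts at this stage.

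All 9 genes had lower normalized counts in the NUP-17d cultures than in the DMSO cultures. The largest differences were in the 3 Trim ligases, in the E2 Ube2l6 and in the F-box gene Fbxo30, whose levels with NUP-17d were 42.6% to 53.6% of those with DMSO. The smallest was in the E2 Ube2r2, at 80.0%. All 9 were called lower (adjusted p under 0.05), against 18.9% of the 12306 genes tested, and all 9 were lower without overlap between the groups, against 23.2%. Nothing is read from these counts, because the genes were chosen on this contrast. In either direction 35.3% of the genes tested were called. Of all genes tested, 16.4% were called higher, and 22.8% were higher without overlap. The log2 fold changes (NUP-17d over DMSO) had a median of −0.90 over the 9 genes and of 0.01 over all genes tested. Fold changes of −1 or lower were found in 2 of the 9 genes and in 0.609% of all genes, those called lower. RNA was compared per library and no cell number was used here, so fewer cells of a type and less RNA per cell cannot be told apart.

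**Figure D1:**
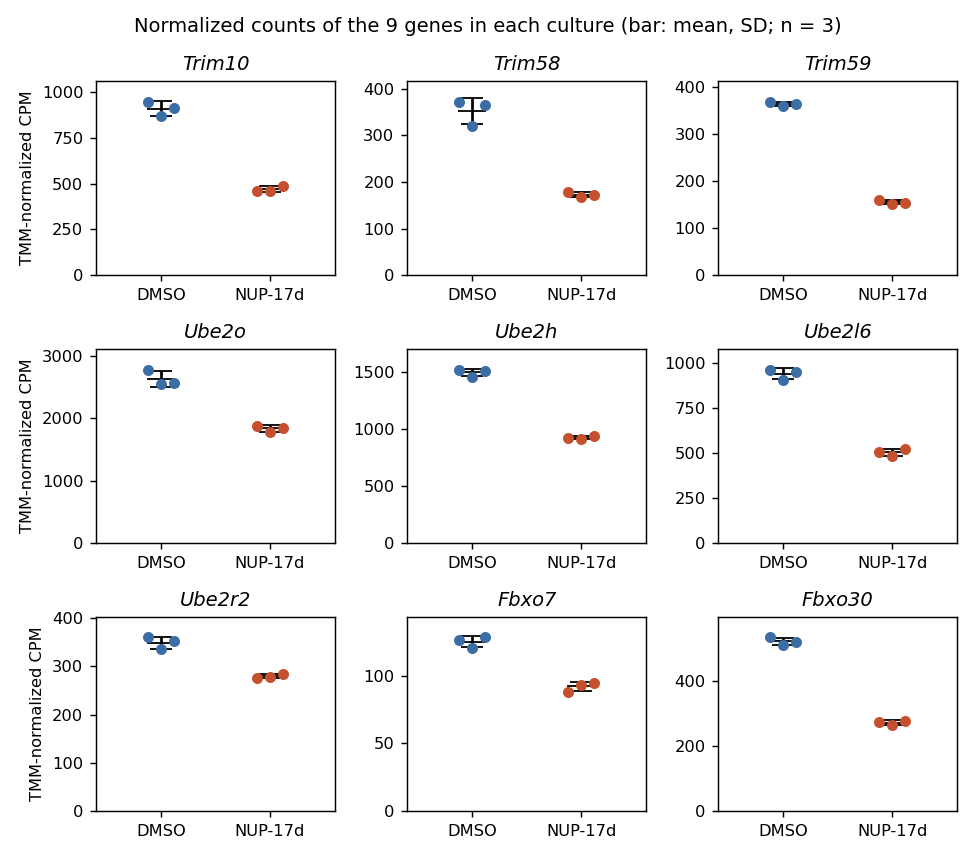
Normalized counts in CPM after TMM scaling (vertical axis, from 0) of each of the 9 genes in the 3 DMSO and the 3 NUP-17d cultures; points are cultures, and bars are the mean and SD. Each NUP-17d point lies below each DMSO point in every panel, with the widest relative gap for Trim59 (364 ± 4.29 against 155 ± 4.21) and the narrowest for Ube2r2 (349 ± 12.2 against 279.7 ± 4.25).

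Among the E2 enzymes, Ube2o had the most reads of the 9 genes. Ube2o is a large enzyme that works as E2 and E3 in 1 chain and clears ribosomal and other proteins from reticulocytes. Its gene lies on the reverse strand at chr11:116537740-116581447 (GRCm38, the same build as mm10, as are all positions here). Its normalized counts in CPM were 2781, 2543 and 2564 in DMSO cultures 1 to 3 and 1879, 1784 and 1852 in NUP-17d cultures 1 to 3. The groups lay far apart compared with the spread inside each. The log2 fold change was −0.52 (SE 0.04), and 69.9% of the DMSO level was left. On the opposite strand a processed pseudogene, Gm11742, overlaps Ube2o over 233 bases, and the strand setting of the counting is not given in the sources used here.

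Ube2h (chr6:30211289-30304539, reverse strand) encodes the E2 that works with the CTLH ligase of erythroid cells. It had 1525, 1461 and 1514 CPM with DMSO and 926, 912 and 939 CPM with NUP-17d. Within each group its cultures differed by a few percent, and the treated ones were at 61.7% of the control level. The log2 fold change was −0.70 (SE 0.04).

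Ube2l6 (chr2:84798828-84810335, forward strand) encodes the E2 that hands the ubiquitin-like protein ISG15 to its targets. It had 966, 910 and 954 CPM in the DMSO cultures and 509, 484 and 525 CPM in the NUP-17d cultures. All treated cultures were near 53.6% of the control level. Its log2 fold change of −0.90 (SE 0.04) was the lowest of the E2 enzymes among the 9, and its counts were not whole numbers in any of the 6 cultures, as happens where reads are shared among genes.

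Ube2r2 (chr4:41135743-41193380, forward strand) encodes a close relative of CDC34, an E2 that lengthens ubiquitin chains on SCF targets. It had 360.3, 336 and 352 CPM with DMSO and 276, 279 and 284 CPM with NUP-17d. Both groups were tight and did not overlap, but the gap was the smallest of the 9 genes, with a log2 fold change of −0.32 (SE 0.04). With counts divided by library totals alone, without a correction for composition, Ube2r2 had 313 to 323 CPM with DMSO and 304 to 308 CPM with NUP-17d, and the log2 fold change was −0.05 (SE 0.03). A processed pseudogene on the same strand, Gm12403, overlaps the gene over 959 bases. The counts of Ube2r2 were whole numbers in every culture and so show no sign of reads shared among genes. For Cdc34, the paralog, counts were 71.8 to 74.7 CPM with DMSO and 65.2 to 71.5 CPM with NUP-17d. Cdc34 did not pass the test (log2 fold change −0.08, edgeR quasi-likelihood test, Benjamini-Hochberg adjusted p = 0.133), and it was higher with library totals alone (0.18).

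The 3 Trim ligases had the lowest fold changes of the 9 genes, with Fbxo30 just above Trim10. Trim10, also called hematopoietic RING finger protein (HERF1), is a ligase known from terminal erythroid differentiation. Trim58 is known to direct the degradation of dynein, the motor that moves cargo along microtubules, in late erythroblasts. Trim59 is a RING protein anchored in membranes, and its part in erythroblasts is less well known.

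Trim10 (chr17:36869574-36877833, forward strand) had 946, 866 and 913 CPM with DMSO and 459, 460.3 and 487 CPM with NUP-17d. The treated cultures were close together at 51.6% of the control mean, and the log2 fold change was −0.95 (SE 0.04). Trim58 (chr11:58640465-58652404, forward strand) had 372, 319 and 365 CPM with DMSO and 178, 168 and 172 CPM with NUP-17d, which is −1.03 on the log2 scale (SE 0.04). Its DMSO culture 2 was low compared with cultures 1 and 3, and the coefficient of variation in the DMSO group, 8.17%, was the highest of the 9 genes. Trim59 (chr3:69035288-69044755, reverse strand) had 368, 359.6 and 364 CPM with DMSO and 159.8, 152 and 154 CPM with NUP-17d, which is −1.23 on the log2 scale (SE 0.04). It was the most lowered of the 9, with 42.6% of the control level left, and came 39th when all 12306 genes were ordered from the most lowered. Trim58 came 77th and Trim10 101st in the same order.

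The stretches before the start of the 3 Trim genes are shown because these genes had the lowest fold changes and differ in the short motifs that they hold. RefSeq gives 10 promoter windows (250 bases before to 50 after a start, GRCm38.p6) for 8 of the 9 genes, and Ube2o has no entry. Each line is the 250 bases before the start, 5′ to 3′ on the strand of the gene: chr17:36869324-36869573 for Trim10, chr11:58640215-58640464 for Trim58 and chr3:69044743-69044992, reverse strand, for Trim59. Capitals mark matches to the GATA motif (AGATAA or AGATAG, and likewise TGATAA or TGATAG, on either strand) and to the CACCC motif (CCNCNCCC, on either strand, where matches may overlap each other).
Trim10: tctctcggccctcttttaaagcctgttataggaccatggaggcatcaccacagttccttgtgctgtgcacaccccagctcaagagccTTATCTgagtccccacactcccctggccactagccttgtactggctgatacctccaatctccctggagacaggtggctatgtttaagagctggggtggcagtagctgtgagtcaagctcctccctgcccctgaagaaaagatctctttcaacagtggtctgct
Trim58: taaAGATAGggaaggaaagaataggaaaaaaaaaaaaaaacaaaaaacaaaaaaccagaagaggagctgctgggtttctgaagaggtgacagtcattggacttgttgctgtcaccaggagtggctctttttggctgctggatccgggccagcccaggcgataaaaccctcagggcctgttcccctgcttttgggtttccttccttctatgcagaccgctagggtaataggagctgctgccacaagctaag
Trim59: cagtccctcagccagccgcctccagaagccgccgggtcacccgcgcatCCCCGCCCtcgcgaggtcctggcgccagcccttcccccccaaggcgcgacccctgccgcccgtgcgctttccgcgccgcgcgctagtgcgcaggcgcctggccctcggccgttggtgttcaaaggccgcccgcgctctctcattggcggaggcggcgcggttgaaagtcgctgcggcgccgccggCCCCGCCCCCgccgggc
GATA1 and KLF1, the main transcription factors of erythroid cells, are known to bind GATA and CACCC motifs. Trim10 held a GATA match on the reverse strand, at position −163 from the start, and Trim58 held 1 on the forward strand, at −247. Neither held a CACCC match. Trim59 was the reverse, with no GATA match and 3 CACCC matches, of which a pair overlapped at −17 and −15, in a window of 76.7% G and C. The Trim10 and Trim58 windows were at 54.0% and 52.3%. Over all windows of the 9 genes, a GATA match was found in 3 of 10, against 29.8% of all 32851 windows of the RefSeq table and 21.7% of the 17014 windows of genes listed in the cultures. A CACCC match was found in 6 of 10, against 49.5% and 63.5%, so the share lay between these backgrounds. The third GATA match belonged to the second start of Ube2h. The STAT motif (TTCNNNGAA) was found in 0 of 10 windows, against 8.30% and 7.14%, and the FOXO motif (GTAAACA) in 1 of 10, at the second Ube2h start, against 3.65% and 2.68%. A match is a run of letters and not a measured binding site.

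Of the F-box genes, Fbxo30 (chr10:11281330-11298052, forward strand) had 534, 512 and 520.5 CPM in the DMSO cultures and 274, 263 and 277 CPM in the NUP-17d cultures. The spread was small in both groups, with coefficients of variation of 2.16% and 2.62%. The log2 fold change was −0.94 (SE 0.04), and 52.0% of the level was left. Fbxo7 (chr10:86021972-86051873, forward strand), whose product is the F-box protein known for binding the proteasome regulator PI31, the kinase CDK6 and the mitophagy ligase Parkin, was the least abundant of the 9 genes. It had 127, 121 and 128 CPM with DMSO and 88.2, 93.5 and 94.6 CPM with NUP-17d, which is −0.44 on the log2 scale (SE 0.04). The groups were separate, with 73.5% of the control level left. An antisense transcript, A230060F14Rik, overlaps Fbxo7 over 358 bases, and reads of both could not be told apart if strand was not used. For Fbxo7 and Fbxo30 the counts were not whole in any culture.

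Per transcript length, Ube2l6 was the most abundant of the 9 genes and Fbxo7 the least. Levels are FPKM divided by the TMM factor, with the rank among all listed genes. With DMSO, Ube2l6 had 673 ± 20.8 (SD, n = 3; rank 78), followed by Ube2o at 497 ± 24.7, Trim10 at 400.1 ± 17.4 and Ube2h at 317 ± 6.99 (rank 196). These 4 genes were thus among the most abundant messages of the control cultures. Trim58 (159 ± 12.9), Trim59 (123 ± 1.40), Ube2r2 and Fbxo30 followed, and Fbxo7 was last at 62.8 ± 2.36 (rank 1090). Only Ube2r2 and Fbxo30 had overlapping ranges among neighbours in this order.

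With NUP-17d the order changed. Ube2l6 (362 ± 14.6) and Ube2o (348.5 ± 9.31) now overlapped. Ube2r2 moved above Trim58 (83.5 ± 1.23 against 78.4 ± 2.38), and Trim59 moved below Fbxo30, from which it could not be separated (52.6 ± 1.45 against 53.7 ± 1.40). Fbxo7 stayed last, at 46.4 ± 1.24. Together the 9 genes took 0.691% to 0.707% of all counts in the DMSO cultures and 0.508% to 0.523% in the NUP-17d cultures.

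**Figure D2:**
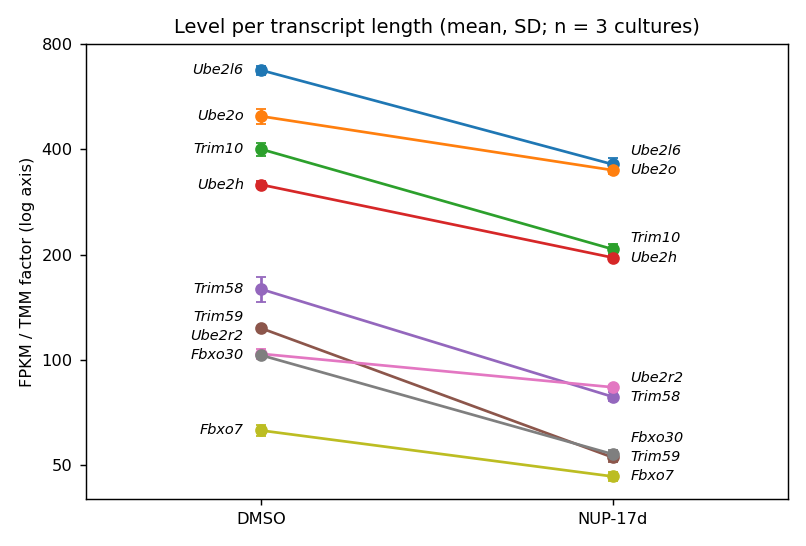
Level per transcript length (FPKM divided by the TMM factor, log axis) of the 9 genes with DMSO and with NUP-17d; points are means, bars the SD over 3 cultures, and lines join the means of a gene. All lines fall, and those of Trim58, Trim59 and Fbxo30 are steeper than that of Ube2r2, which they start above or beside (104 with DMSO) and end below (83.5 with NUP-17d).

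The differences were set beside those of erythroid cells in general. All 16 erythroid markers were lower with NUP-17d and passed the test, their median being −0.70 on the log2 scale. Their summed level, most of it from hemoglobin genes, was 123409 to 137907 CPM with NUP-17d. The 9 genes and the erythroid markers were thus lower in the same cultures. What part of the difference of the 9 genes goes with the markers was not tested. Over the 12 markers that are not hemoglobin genes the median was −0.57. Trim59 lay 0.66 below this median on the log2 scale, Trim58 0.45, Trim10 0.38, Fbxo30 0.37 and Ube2l6 0.32, and none of the 12 markers was lowered more than any of these 5 genes. Of the 4 hemoglobin markers, Hba-a2 (−1.08) was lower than all of the 5 except Trim59, and Hbb-bt (−0.92) was lower than Ube2l6, whereas Hba-a1 and Hbb-bs were not lower than any of the 5. Ube2h lay 0.12 below and Ube2o 0.06 above it, within the markers' range, as 5 and 7 of the markers were lowered more. Fbxo7 lay 0.13 and Ube2r2 0.25 above it, and 8 and 11 of the 12 markers were lowered more. These are comparisons of values chosen on the same contrast and carry no test.

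Markers of other cells went in both directions after TMM scaling. Their counts stand beside 18.9% lower and 16.4% higher of all genes tested. With library totals alone the median of all tested genes was 0.28, and Camp, the lower neutrophil marker, turned to 0.10. The marker sums are given after TMM scaling only. Of 9 neutrophil markers 1 was lower and 2 were higher, with a summed level of 3938 to 4106 CPM with DMSO and 4018 to 4298 CPM with NUP-17d. Macrophage markers (2 lower and 3 higher of 9) summed to 3067 to 3307 and 3427 to 3733 CPM, and megakaryocyte markers (1 lower and 5 higher of 8) to 458 to 507 and 525 to 545 CPM. The sums of the macrophage and megakaryocyte markers were thus higher without overlap, whereas those of the neutrophil markers overlapped. Lyz2 made up most of the macrophage sum, at 2295 to 2479 CPM with DMSO and 2594 to 2828 CPM with NUP-17d. The other macrophage markers went both ways, for example Cd68 (0.30) and C1qa (−0.65). Stem and progenitor markers, such as Kit, the receptor for stem cell factor (log2 fold change 0.19), and Mycn (0.45), had 3 higher and none lower of 7, with sums of 317 to 323 and 334 to 348 CPM. The remaining higher one, Meis1 (0.18), lost its call with DESeq2 and without DMSO culture 1 or NUP-17d culture 1. Mast cell and basophil markers (3 lower and 1 higher of 6 tested) summed to 234 to 251 and 207 to 214 CPM. The 3 lower ones, Prss34, Mcpt8 and Hdc, were not called with library totals alone (−0.03, −0.13 and 0.06). Lymphoid markers were sparse, at 29.8 to 33.6 CPM and 28.5 to 29.2 CPM, with 2 lower and none higher of 8. Among them Ms4a1, a B cell gene, had a lower fold change than any of the 9 genes (−1.66, SE 0.31), at 1.213 to 1.504 CPM with DMSO and 0.27 to 0.63 CPM with NUP-17d. The other lower lymphoid marker, Cd79a (−0.37), lost its call in 8 of 13 alternative fits. Gp6, a platelet receptor, was at −0.69 and C1qa, a complement gene of macrophages, at −0.65, both under 5 CPM. No marker of these lists was at 0 throughout. Hemoglobin genes held 18.3% to 20.3% of the counts with DMSO and 11.8% to 13.1% with NUP-17d, and libraries totalled 20076409 to 20419018 counts. Whether the makeup of the cultures took part in the differences of the 9 genes was not tested.

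**Figure D3:**
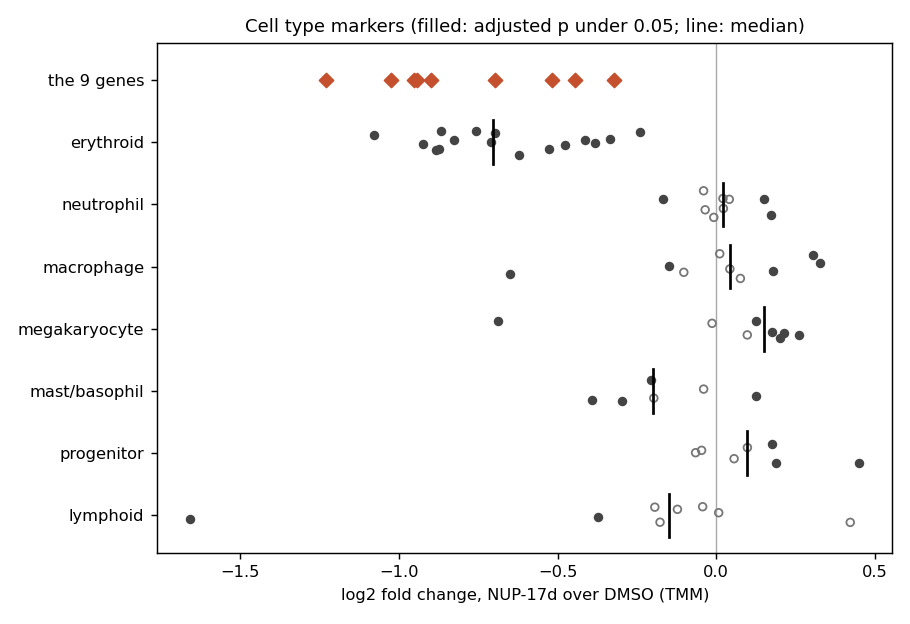
Log2 fold change, NUP-17d over DMSO after TMM scaling (horizontal axis), of the 9 genes (diamonds) and of the markers of 7 cell types; filled circles passed the test at an adjusted p under 0.05, open circles did not, and short black lines are medians of the lists. The 9 genes and the erythroid markers (median −0.70) lie to the left, and the medians of the other lists lie between −0.20 (mast cell and basophil) and 0.15 (megakaryocyte).

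Within their families, the 9 genes stood at the lowered end, which the choice of genes favours. Of 46 Trim genes tested, Trim59, Trim58 and Trim10 came 2nd, 3rd and 4th from the most lowered. The 1st was Trim15, a neighbour of Trim10 in the genome, at 3.83 ± 0.60 CPM with DMSO and 1.15 ± 0.06 CPM with NUP-17d (log2 fold change −1.73). The other 43 Trim genes had 7 lower, 7 higher (16.3% each, near the shares of all genes) and 29 that did not pass the test, and their median was 0.01. Trim56, a ligase of innate immunity, was lower (−0.62), and Trim8 was higher (0.43). Trim10, Trim58 and Trim59 were also the 3 most abundant Trim genes per length in the DMSO cultures. They held 66.3% of the summed Trim level with DMSO and 49.5% with NUP-17d.

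Of 31 Ube2 genes tested, Ube2l6 was the most lowered, Ube2h came 2nd, Ube2o 4th and Ube2r2 7th. The other 27 had 8 lower (29.6%) and 4 higher (14.8%), beside 18.9% and 16.4% of all genes tested. Their median of −0.05 turned to 0.22 with library totals alone. Ube2b, an E2 of DNA damage tolerance and histone ubiquitination, was 437 ± 10.5 CPM with DMSO and 304 ± 9.23 CPM with NUP-17d (−0.53). Ube2f, a conjugating enzyme for NEDD8 (−0.48), and Ube2v1, a partner of the E2 that makes K63 chains (−0.38), were lower as well. The 4 members held 45.4% of the summed Ube2 level with DMSO and 37.2% with NUP-17d. The count of higher Ube2 genes was 0 with DESeq2 and 0 to 3 when 1 culture was left out.

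Of 30 Fbxo genes, Fbxo30 was the most lowered and Fbxo7 came 4th, with Fbxo9 and Fbxo34 (both −0.67) between them. The other 28 had 6 lower (21.4%) and 2 higher (7.14%), among them Fbxo6 (0.58), which recognizes glycoproteins, and a median of 0.01. With library totals alone 2 were lower and 16 higher. Fbxo30 and Fbxo7 held 30.4% of the summed Fbxo level with DMSO and 24.1% with NUP-17d.

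**Figure D4:**
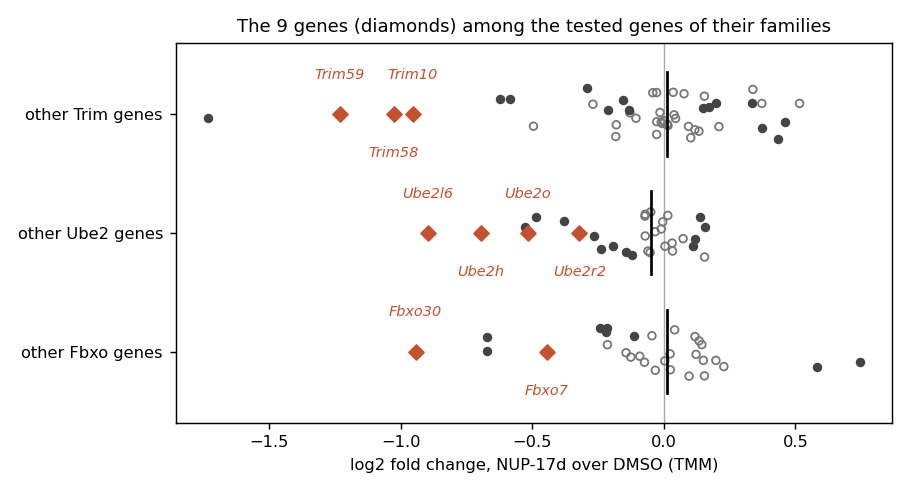
Log2 fold change, NUP-17d over DMSO after TMM scaling (horizontal axis), of tested Trim, Ube2 and Fbxo genes; red diamonds are the 9 genes, circles the other genes of each family (filled where the adjusted p was under 0.05), and black lines the medians of those other genes. The medians lie at 0.01, −0.05 and 0.01, and only Trim15 (−1.73) among the circles lies to the left of all diamonds of its family.

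Ubiquitin itself and its activating enzymes were examined next. The counts of this and the following lists stand beside 18.9% lower and 16.4% higher of all genes tested. Of 6 genes 3 were lower, Ubb and Uba1 among them, and none was higher, with a median of −0.10 that turned to 0.17 with library totals alone. Ubb, a gene for polyubiquitin, had 3898 to 4140 CPM with DMSO and 2697 to 2908 CPM with NUP-17d (log2 fold change −0.52). Uba1, the main E1, had 645 to 682 CPM and 482 to 508 CPM (−0.41). The groups of both genes were apart.

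The CTLH ligase, partner of Ube2h, had 5 of 11 subunits lower and 1 higher, with a median of −0.08 (0.19 with library totals alone, when 3 were lower and 6 higher). The lower ones were led by Ranbp10, a scaffold subunit, at 1560.2 ± 67.5 CPM with DMSO and 944 ± 35.1 CPM with NUP-17d (−0.73), a difference like that of Ube2h. Wdr26, another scaffold subunit that is made in large amounts in erythroblasts, went from 1016 ± 35.1 CPM to 661 ± 11.5 CPM (−0.62). Ypel5 (−0.42), Rmnd5a (−0.21) and Mkln1 (−0.22) were also lower, the last 2 turning to 0.06 and 0.04 with library totals alone. Maea, one of the RING subunits, was slightly higher, at 58.6 ± 2.28 CPM and 64.6 ± 2.82 CPM (0.14), a call that was not made by DESeq2 or without DMSO culture 3 or NUP-17d culture 3 (0.11 each).

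Of 15 genes for SCF ligase parts and their NEDD8 modification, 8 were lower (53.3%) and none was higher, with a median of −0.13 that turned to 0.14 with library totals alone. Btrc, an F-box protein that binds phosphorylated targets, was at 80.5 ± 2.44 CPM with DMSO and 52.3 ± 1.68 CPM with NUP-17d (−0.62). Dcun1d1, which helps to attach NEDD8 to cullins, was at −0.45. Ube2m, the E2 for NEDD8, was at −0.24, and it was not lower with library totals alone (0.03).

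The genes of the ISG15 pathway, in which Ube2l6 works, had a median of −0.01 (0.26 with library totals alone). Of 5 genes Herc6, the ligase for ISG15 in mice, was lower (−0.14) and none was higher. The Herc6 call was not made by DESeq2 or without DMSO culture 1 or 3 (−0.11 and −0.12) or NUP-17d culture 2 or 3 (−0.14 and −0.12), and turned to 0.12 with library totals alone. Isg15 had 94.05 to 100.2 CPM with DMSO and 95.0 to 99.9 CPM with NUP-17d (log2 fold change −0.002, adjusted p = 0.972 by edgeR, and 0.26 with library totals alone), and its E1, Uba7, was at −0.01. Ube2l6 is also induced by interferon, and of 10 other interferon-stimulated genes 4 were lower and 3 higher, for example Ifit3 (−0.75) and Ifit1 (0.66).

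Genes for dynein and its cofactors, the target of Trim58, had 5 lower and 5 higher of 17 tested, with a median of −0.01 (0.26 with library totals alone). Dync1li2, a light intermediate chain, was lower (−0.53), as were Pafah1b1, a regulator of the motor (−0.35), and Dynll1, a light chain (−0.22), the last of these higher with library totals alone (0.05). The Pafah1b1 call was lost in both limma fits (−0.07 each). Dync1h1, the heavy chain, was higher (0.19), with 231 to 256 CPM and 259 to 307 CPM, but not by DESeq2.

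Of 4 partners of the FBXO7 protein, Pink1 was lower, at 244 to 281 CPM with DMSO and 179 to 195 CPM with NUP-17d (−0.47). PINK1 is the kinase that starts the Parkin pathway of mitophagy. Psmf1, which encodes PI31, was at −0.14, a call lost by DESeq2 and without DMSO culture 1 (−0.10), NUP-17d culture 2 (−0.12) or NUP-17d culture 3 (−0.12), and turned to 0.13 with library totals alone. Cdk6 was slightly higher (0.11), a call lost without DMSO culture 1 (0.09). Park2, the gene for Parkin, had 0.83 to 0.86 CPM with DMSO and 0.86 to 1.33 CPM with NUP-17d and did not pass the test.

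Of 16 other ligases known from erythroid or hematopoietic cells 6 were lower and 1 was higher, with a median of −0.04 (0.22 with library totals alone). Rnf123 (−0.51), March8, which marks the transferrin receptor (−0.41), and Siah1a (−0.44) led the lower ones. Among 45 Usp genes, which encode enzymes that remove ubiquitin, 14 were lower (31.1%) and 2 higher (4.44%), with a median of −0.04 (0.23 with library totals alone). Usp7 (−0.57), Usp15 (−0.52) and Usp32 (−0.47) had the lowest p-values of the Usp genes. These shares stand beside 18.9% and 16.4% of all genes tested.

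**Figure D5:**
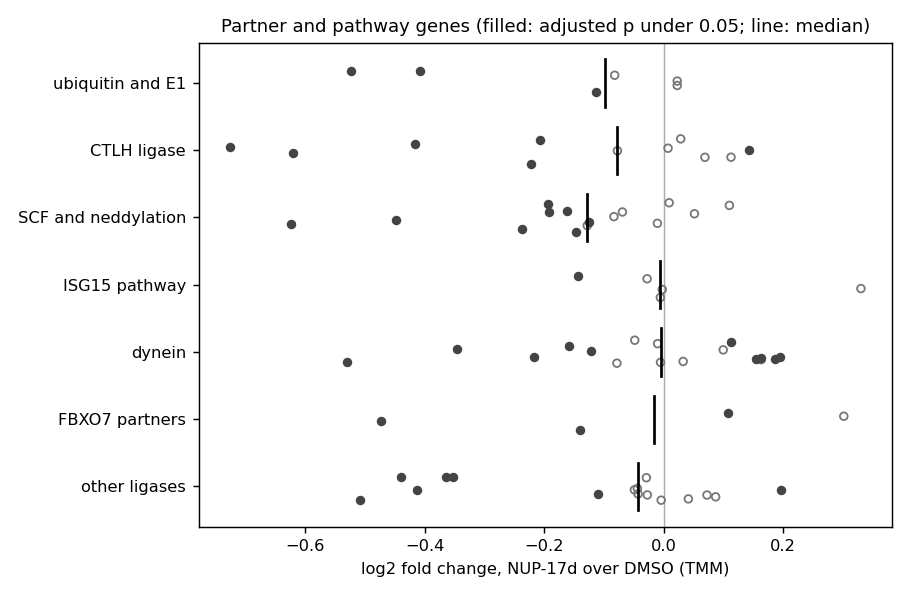
Log2 fold change, NUP-17d over DMSO after TMM scaling (horizontal axis), of genes that work with the 9 genes, in 7 lists; filled circles passed the test at an adjusted p under 0.05, open circles did not, and black lines are medians. The medians lie between −0.13 (SCF and neddylation) and −0.01 (dynein, ISG15), and the lowest single value is that of Ranbp10 (−0.73) in the CTLH list.

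The genes whose pattern over the 6 cultures was most like that of each of the 9 were found by the root mean square difference of centred log2 CPM among 9755 genes. For Trim10 the nearest was Rundc3a (0.009). Trim58 had Dusp8 (0.04) and Slfn14 (0.05), and Trim59 had Apol8 (0.05), so the nearest patterns of these 2 genes were less close than that of Trim10. For the E2 enzymes they were Slc22a23 and Gypc (glycophorin C) with Ube2o, Tbcel and Zrsr1 with Ube2h, Isg20 and Slc25a37 (mitoferrin 1, an iron importer of mitochondria) with Ube2l6, and Gclm and Cdkn2d with Ube2r2, all at differences of 0.01 to 0.02. Fbxo7 was matched by Scoc and Atp6v0a1 (0.02 to 0.03), and Fbxo30 by Gpcpd1 (0.01) and Btg2 (0.02), an antiproliferative gene. The difference is dominated by the gap between the groups, since each pattern has 6 points.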

How the data were processed

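RNA of 3 DMSO and 3 NUP-17d cultures was compared, grouped by the sample titles. For each culture the authors deposited a table with an expected count per gene (estimated reads, not normalized, 27.8% to 28.5% of them not whole), the FPKM value (scaled by the authors to transcript length and library total) and a transcript length. A gene not listed in a culture was taken as 0. The submitters' processing notes name mm10, and the aligner and counting program are not given in the sources used here. The labels describe oligo-dT selection, random priming and a DNBseq instrument, whereas the methods of the study name a stranded kit and another instrument.

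Counts were rounded and compared with edgeR 4.0.16 in R 4.3.3 (filterByExpr, TMM, glmQLFit and glmQLFTest, Benjamini-Hochberg adjustment over 12306 genes, threshold 0.05). TMM corrects for library composition. Hemoglobin took a smaller share of the treated libraries, and how much of the correction goes with it was not tested. No spike-in was used, so abundances are relative. The alternatives were DESeq2 1.42.0, library totals alone, testing without the low-count filter, the 12 hemoglobin genes taken out first, limma 3.58.1 with a pseudocount of 1 or 0.1 on log2 FPKM (genes of mean FPKM 1 or more), a block for the replicate number, and 6 fits that each omit 1 culture. In simulated counts for 12219 genes, edgeR recovered 101 of 104 genes changed by 1 on the log2 scale and 83 of 95 changed by 0.5, with 15 false calls. Only 199 genes were changed there, up or down with equal odds and without a shift in composition. The simulation therefore cannot judge the choice of scaling.

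The common biological coefficient of variation was 2.95%. Cultures of 1 group differed by more than counting noise (chi-square 1.83 to 4.54 per degree of freedom), so no pair of cultures was counted as 1 sample. The members and gene lists were chosen with earlier results of these data known. Beside the members, the text names up to 3 genes per list or family with the lowest p among genes called without overlap, the paralog Cdc34, and the 2 genes (mean count 100 or more) most like each member. Some genes that these rules name are not reported here. C1qa, Hba-a1, Hba-a2, Hbb-bs, Rmnd5a, Mkln1, Maea, Herc6, Isg15, Uba7, Dync1h1, Park2 and the genes beside the members in the genome were chosen after their values were seen. Gene positions are from GENCODE (GRCm38), and promoters from RefSeq.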

Additional observations from a re-analysis of the deposited data

How the results depend on the processing

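All 9 genes were lower under every alternative run. Their differences were smaller with library totals alone, with log2 fold changes of −0.96 (Trim59), −0.76 (Trim58), −0.43 (Ube2h), −0.25 (Ube2o) and −0.18 (Fbxo7). Ube2r2 was at only −0.05 (SE 0.03) with totals alone, and at −0.05 in both limma fits. Scaling had the largest effect. With library totals alone the median log2 fold change of all tested genes moved from 0.01 to 0.28, and calls went from 2019 higher and 2327 lower to 8458 higher and 657 lower. limma on FPKM, which has the same scaling, gave 7895 and 7880 higher and 599 and 600 lower (pseudocounts 1 and 0.1), and DESeq2 gave 1276 higher and 1877 lower. The median of the 9 genes was −0.63 with totals alone and −0.63 in both limma fits, and −0.93 to −0.87 when 1 culture was left out. In these 3 fits the other Trim genes had 2 lower and 26, 24 and 24 higher, the Ube2 genes 3 lower and 20 higher, the Fbxo genes 2 lower and 16, 13 and 13 higher, and the CTLH genes 3 lower and 6 higher. DESeq2 gave 0 higher Ube2, 1 higher Fbxo and 0 higher CTLH genes, and 1 Fbxo gene was higher without a filter on low counts. Leaving out 1 culture gave 0 to 3 higher Ube2 genes, 1 to 3 higher Fbxo genes and 0 to 1 higher CTLH genes.

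Of 70 named genes outside the 9, 55 kept direction and call throughout. In these 3 fits 5 of the 70 that had been called lower turned positive: Ube2m (0.030, 0.023, 0.023), Dynll1 (0.050, 0.053, 0.053), Psmf1 (0.13, 0.12, 0.13), Camp (0.10, 0.10, 0.10) and Hdc (0.062, 0.059, 0.065). Cdc34, which was not called in the main fit, turned positive in them as well (0.18, 0.18, 0.19). Pafah1b1, Cdk6, Mrc1, Prss34, Mcpt8, Meis1, Cd79a, Gclm and Cdkn2d kept their direction but lost their call in 1 or more alternative runs. The replicate block gave 2121 higher and 2422 lower calls and 3 higher Fbxo genes. The deviations of same-numbered cultures from their group means (log2 CPM) correlated at 0.06, −0.005 and −0.003, so the numbers were not taken as pairs. All 9 genes had at least 1950 counts in each culture, so their counting error is small, whereas Park2 and Trim15 rest on few counts.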

Other observations

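The nearest tested protein-coding genes on either side of the 9 genes in the genome, 18 in all and none overlapping its member, were compared after their values had been seen. Of these, 7 were lower, none was higher and 11 did not pass the test, against 18.9% lower and 16.4% higher over all genes. Trim15 lies 2363 bases before Trim10, on the opposite strand, and had the largest log2 fold change of the 18 (−1.73, SE 0.19). Ube2l6 had both neighbours lower: Ypel4, a YPEL family gene 60172 bases away, was at 376 ± 15.4 CPM with DMSO and 177 ± 3.04 CPM with NUP-17d (−1.08, SE 0.04), and Smtnl1, 840 bases away, at 3.49 ± 0.70 and 1.89 ± 0.12 CPM (−0.89, SE 0.18). Smc4, a condensin subunit gene 664 bases from Trim59, had a smaller difference than Trim59, at 390.0 ± 4.85 and 335 ± 9.13 CPM (−0.22, SE 0.03). The Smc4 value turned to 0.05 with library totals alone. Ubap2, 932 bases from Ube2r2, was at 135 ± 3.62 and 135 ± 3.59 CPM (−0.006, SE 0.04) and did not pass the test.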
